A study of Ursus arctos with 5 samples.

Results

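Of the 26614 assembled transcripts listed for grizzly bear (Ursus arctos) gastrocnemius muscle, 744 carried no gene name and had a mean level of at least 50 RPKM over 4 libraries. RPKM is the number of reads per kilobase of transcript and per M (mega) aligned reads. The transcripts were chosen by these 2 conditions, the empty name and the measured level, so the high level of the 744 is a description and is not tested below. At the threshold, isotig32161 and isotig11988 stood just inside with means of 50.0178 and 50.0232 RPKM, and isotig17056 and contig13989 stood just outside with 49.9435 and 49.9145 RPKM. A further 16777 transcripts without a name were below 50 RPKM, and 455 transcripts with a name, of 295 distinct genes, were at or above it.

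The calf muscle gastrocnemius was biopsied from 2 bears, called Star and Tia in the labels, in October, when they were active, and again in February, when they hibernated. Single-end sequencing of poly(A) RNA gave 1 library per bear and state, so each state had 2 libraries and no bear had a replicate within a state. In the labels, the single-end reads of both bears are joined to 1 sample in each state, and all samples have an age of 10 years, while the study speaks of a subadult and an adult, and the bears are told apart here by the column names of the deposited table. State, month and time of sampling cannot be told apart in this design. In whole muscle, fewer cells of a type and less RNA per cell cannot be told apart either.

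A transcriptome assembled without a genome is built from overlapping reads. In the assembler used, a contig is a stretch of merged reads and an isotig is a path through connected contigs, meant to stand for 1 splice form, so that isotigs of 1 gene can hold the same contigs. A name was given by likeness to a human protein. A transcript without one may be noncoding, an untranslated end of a coding transcript, a fragment, or the product of a gene unlike the human proteins. It may also be a coding transcript that is like a human protein but was left unnamed. The missing name alone does not separate these. Poly(A) RNA of skeletal muscle is known to be dominated by transcripts of the contractile apparatus, energy metabolism and the mitochondrial genome.

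The step between low RPKM values corresponded to 50.1 and 52.5 M aligned reads in the hibernating and active library of Tia and to 54.2 and 44.7 M in those of Star. The least covered of the 744 transcripts rested on 152 to 585 reads, depending on the library, and the median one on 4850 to 6640 reads. The listed transcripts together held 98.0% to 98.2% of the aligned reads. The tissue label was checked on named transcripts. Of 10 markers of skeletal muscle, 5 were present by name (TNNC2, MYH1, MYH2, MYH7 and TTN). Their level was 10700 to 16100 RPKM summed over 1 transcript a gene, the one with the highest share of reads. In it, MYH1 was at 2054, 4823, 7625 and 7801 RPKM in hibernating Tia, active Tia, hibernating Star and active Star. MYH7 was higher in Tia, at 2872, 3004, 1295 and 1839 RPKM in the same order. TNNC2 was also higher in both libraries of Star and TTN in both of Tia, while MYH2 overlapped between the bears. ACTA1, CKM, MB, TNNT3 and NEB, abundant muscle genes, had no transcript by that name. None of 5 markers of fat cells and none of 5 markers of blood had a named transcript, and of 4 markers of endothelium only PECAM1 had one, at 7.53 to 13.0 RPKM. Of 5 markers of connective tissue, 3 had a named transcript (COL1A1, COL1A2 and COL3A1), and the sum of the same kind was 269 and 312 RPKM in hibernating and active Tia and 223 and 146 RPKM in hibernating and active Star. The transcripts behind this sum moved differently. They were 1 of 9 named COL1A1, 1 of 2 named COL1A2 and 1 of 8 named COL3A1. COL3A1 was at 254 and 116 RPKM in hibernating and active Tia and at 210 and 136 RPKM in hibernating and active Star, while COL1A1 was at 193 RPKM in active Tia and at 6.79 to 11.0 RPKM in the other 3 libraries. The part of other cell types in the results below was not tested.

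The 744 transcripts made up 2.80% of the list and held a mean of 46.2% of the aligned reads over the 4 libraries. RPKM multiplied by length is proportional to the reads of a transcript and gave this share. The 744 held 45.9% of the reads in hibernating Tia, 47.1% in active Tia, 43.9% in hibernating Star and 47.7% in active Star. The 455 named transcripts at the same threshold held 19.8%, 21.0%, 21.5% and 21.1% in the same order. The 16777 unnamed transcripts below the threshold held 18.1%, 16.7%, 18.3% and 16.2%. Transcripts named for the mitochondrial genome, 7 in number, held 2.45% to 2.88%.

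**Figure D1:**
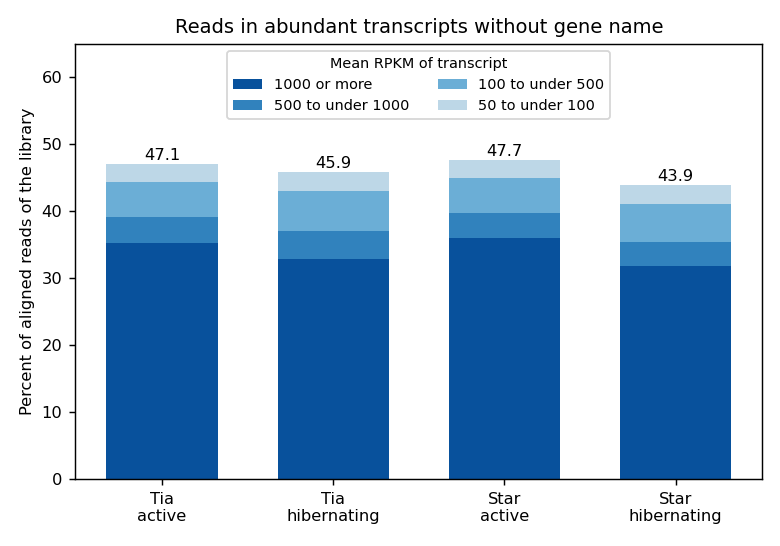
Share of a library's aligned reads (%, vertical axis from 0) held by the 744 transcripts without a name, stacked by class of mean RPKM, in each of the 4 libraries (horizontal axis), with the total above each bar. The 64 transcripts at 1000 RPKM or more fill most of every bar, between 31.8% and 36.0% of the reads, and the total is lower in the hibernating library of both bears.

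The reads of the 744 were concentrated in few transcripts. Of all reads the set held, 50% fell on 14 transcripts, 75% on 63 and 90% on 228. The 10 transcripts of the whole list with the most reads all belonged to the set, as did 63 of the 100 with the most reads, and the first named transcript came at rank 13. At a mean of 10000 RPKM or more there were 10 transcripts without a name and 0 with one, and at 1000 RPKM or more there were 64 and 29. By class of level, 315 of the set lay between 50 and 100 RPKM and held only 2.63% to 2.86% of the reads, 304 lay between 100 and 500 RPKM with 5.23% to 6.05%, and 61 lay between 500 and 1000 RPKM with 3.62% to 4.16%. In every library 579 of the 744 were at 50 RPKM or above, and 165 fell below it in at least 1.

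**Figure D2:**
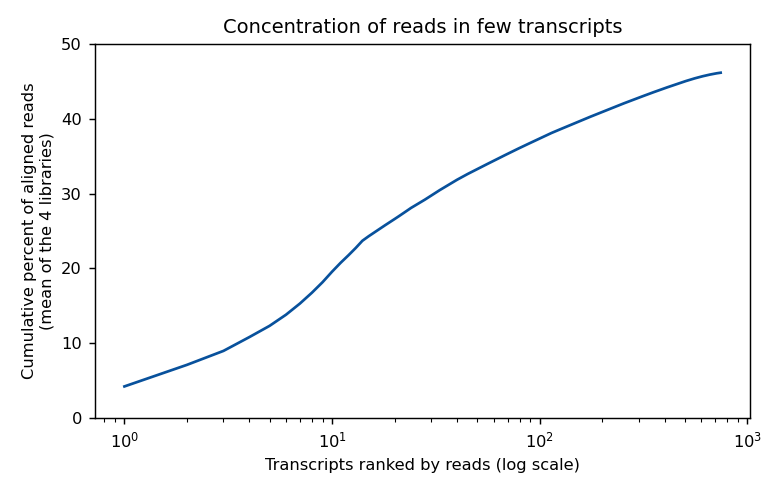
Cumulative share of aligned reads (%, mean of the 4 libraries, vertical axis from 0) against the number of the 744 transcripts added in order of their reads (horizontal axis, log scale). The line starts at 4.23% with isotig28030 and ends at 46.2% with all 744, and 14 transcripts bring it to 50% of the reads of the set.

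The transcript with the most reads was isotig28030, of 1054 bases, at 34704 RPKM in hibernating Tia, 42741 in active Tia, 40374 in hibernating Star and 42855 in active Star. It alone took 3.66% to 4.52% of a library's reads. Next by reads was isotig35284, of 612 bases, at 42187, 49972, 45752 and 50506 RPKM in the same order, the highest level of any transcript listed. Both were lower in hibernation in both bears, and in both transcripts the states did not overlap. The log2 change of isotig28030 from active to hibernating, on the scale of log2(RPKM + 0.5), was -0.30 in Tia and -0.09 in Star, with an adjusted p of 0.928 by limma. For isotig35284 it was -0.24 and -0.14, with an adjusted p of 0.932 by limma. Neither change passed the test.

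Further transcripts among the 10 with the most reads came in groups of neighbouring IDs with nearly equal read totals. Isotig04690, of 1458 bases, was at 13906, 11674, 11580 and 14102 RPKM, and its neighbour isotig04691, of 1293 bases, at 15526, 13030, 12909 and 15702 RPKM, in the order hibernating Tia, active Tia, hibernating Star, active Star. Their read totals agreed within 5% in every library. Isotig00022, isotig00025 and isotig00026, of 2262, 1142 and 1049 bases, formed another such group. Isotig00022 was at 7368 and 7269 RPKM in hibernating and active Tia and at 4364 and 7434 RPKM in hibernating and active Star. Hibernating Star stood apart below the other 3 libraries, and the other members of the group had the same pattern, with a log2 change of 0.02 in Tia and -0.77 in Star. Isotig00004 and isotig00005, of 850 and 947 bases, went the other way, with isotig00004 at 14584 and 18729 RPKM in hibernating and active Tia and at 17416 and 15332 RPKM in hibernating and active Star. Contig01235, of 618 bases, was not in such a group and was at 20391, 29197, 24077 and 20391 RPKM, highest in active Tia. Of the 10 with the most reads, 2 were lower in hibernation in both bears, 0 were higher in both and 8 changed in opposite directions.

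Isotigs that hold the same contigs can be credited with the same reads. As a partial check on this, transcripts were put into 1 matched set by 2 conditions. Their ID numbers lay up to 5 apart, and their read totals agreed within 5% in all 4 libraries. Neighbours that share only part of their reads stay apart under this rule. The totals with each set counted once may thus still hold repeats, and they do not show how far sharing could go. No sequence or alignment was used, so that reads are shared within these sets was not tested. This gave 59 sets with 129 of the 744 transcripts, at most 4 to a set. None of the 744 formed such a set with a named neighbour. Counted once per set, 674 transcripts remained and held 36.5%, 37.9%, 35.9% and 37.9% of the reads in the order hibernating Tia, active Tia, hibernating Star, active Star. These percentages still refer to all aligned reads of a library, with no repeats taken out of that total. Named transcripts were not put into sets, so these shares are not comparable with those of the named transcripts. The largest sets were the group of isotig00022 with 4.48% of the reads summed over its members, the pair of isotig04690 with 3.72%, the pair of isotig00004 with 2.81% and the pair isotig00044 and isotig00045 with 1.93%. How reads that match several transcripts were assigned is not given in the sources used here, so the level of each isotig in a set is uncertain, and the set's summed share may count the same reads more than 1 time.

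The 744 were short for this assembly. Their median length was 793.5 bases, with quartiles of 541 and 1345 and a range of 66 to 5158 bases, against 1003 bases for the named transcripts at the same threshold, 1167 for the unnamed ones below it and 1347 for the whole list. By class, 153 were under 500 bases, 305 between 500 and 1000, 200 between 1000 and 2000, 84 between 2000 and 5000, and 2 were 5000 bases or longer. The named transcripts at the same threshold were spread over the same classes as 55, 172, 127, 89 and 12. Most reads of the set fell on the middle classes. The class from 500 to 1000 bases held 15.8% to 17.8% and the class from 1000 to 2000 bases 19.7% to 22.7% of a library's reads, while the class under 500 held 2.29% to 2.73%.

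**Figure D3:**
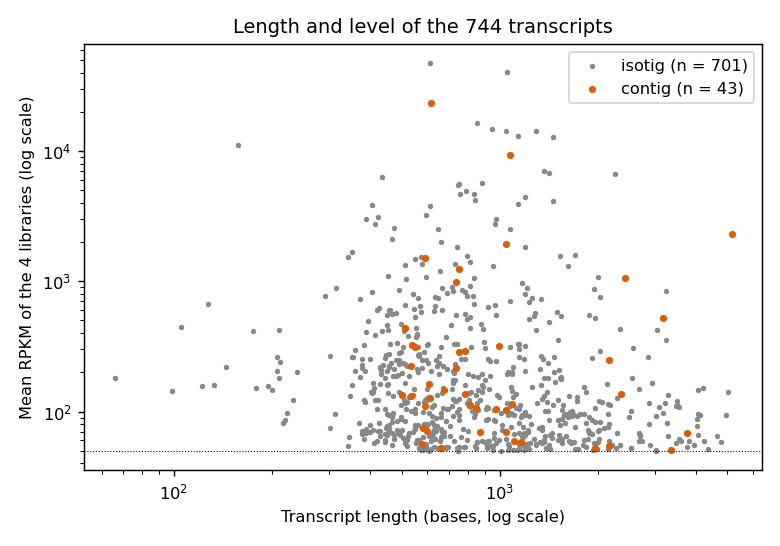
Length in bases (horizontal axis, log scale) against mean RPKM over the 4 libraries (vertical axis, log scale) for each of the 744 transcripts without a name, with the 43 contigs and 701 isotigs in different colours and the threshold of 50 RPKM as a dotted line. Lengths run from 66 to 5158 bases, and the highest point is isotig35284 at 612 bases.

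The shortest transcripts were an extreme of this kind. Of 24 transcripts under 200 bases in the whole list, 11 belonged to the set and 0 had a name. Isotig20585, of 157 bases, was the most abundant of them, at 10762 and 12319.9 RPKM in hibernating and active Tia and at 12878 and 8789.6 RPKM in hibernating and active Star. It was chosen after its values were seen. The other 10 had means below 1000 RPKM, and the shortest, isotig46191 of 66 bases, was at 263, 163, 164 and 138 RPKM in the same order. For transcripts this short, few positions or none allow a read to align in full, so their RPKM is uncertain. The cycles of single-end sequencing given in the study exceed the 66 bases of isotig46191, so a full read cannot lie within it. How reads were counted for it is not given in the sources used here.

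The longest transcripts were few and of unlike level. Contig00507, of 5158 bases, was at 2124 and 1923 RPKM in hibernating and active Tia and at 2137 and 3066 RPKM in hibernating and active Star, and held 1.19% of the reads on average. Isotig08849, of 5010 bases, was at 157, 171, 97.2 and 139.9 RPKM in the same order. Isotig08842, of 4958 bases, was at 98.5, 97.0, 88.4 and 92.2 RPKM and varied least of the 3. Isotig08849 was lower in hibernation in both bears, with log2 changes of -0.13 in Tia and -0.52 in Star, but the states overlapped. The other members of this group changed in opposite directions in the bears.

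By prefix, 701 of the set were isotigs and 43 were contigs. Contigs made up 5.78% of the set, 8.13% of the named transcripts at the same threshold (37 of 455) and 1.56% of the whole list (414 of 26614). The 43 contigs held 4.80%, 5.18%, 4.88% and 5.12% of the reads in the order hibernating Tia, active Tia, hibernating Star, active Star, and the isotigs 41.1%, 41.9%, 39.1% and 42.6%. The median length of the contigs, 786 bases, was close to that of the whole set.

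The share of reads held by the set was lower in hibernation in both bears. It averaged 44.9% ± 1.42 (SD, n = 2) in hibernation and 47.4% ± 0.462 (SD, n = 2) in activity, a difference of -2.44 percentage points, with -1.11 in Tia and -3.77 in Star. The exact permutation test over the 4 libraries, two-sided, gave p = 0.333, the smallest value that 2 against 2 libraries allow, so this design cannot reach 0.05. Without the hibernating library of Star the difference was -1.44 points. The 10 transcripts with the most reads held 19.0%, 20.9%, 17.8% and 20.6% of the reads in the order hibernating Tia, active Tia, hibernating Star, active Star, a difference of -1.86 points in Tia and -2.79 in Star. All the others held 26.9%, 26.2%, 26.1% and 27.1%, and changed by 0.75 points in Tia and -0.98 in Star. Their mean difference of -0.12 points was thus the balance of opposite changes in the bears. Of the 10, 7 belonged to matched sets. With each matched set counted once, the set as a whole changed by -1.45 points in Tia and -2 in Star, the 6 transcripts that then stood for the 10 by -1.87 and -1.21, and all the others by 0.42 and -0.79.

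Within the set the change went in different directions by level. The 64 transcripts at 1000 RPKM or more changed by -2.38 points in Tia and -4.25 in Star. With each matched set counted once, 55 transcripts were left in this class, and they changed by -2.59 and -2.36 points. Transcripts between 500 and 1000 RPKM changed by 0.26 points in Tia and -0.17 in Star. Those between 100 and 500 RPKM changed by 0.81 and 0.45 points, and those between 50 and 100 RPKM by 0.20 in each bear. Named transcripts at 1000 RPKM or more changed by -1.37 points in Tia and -0.11 in Star. In the lower classes, from the highest down, they changed by 0.13 and 0.29, 0.21 and 0.11, and -0.17 and 0.12 points. In the class from 50 to 100 RPKM, 126 were higher in hibernation in both bears and 72 lower in both, against 84 and 35 of the 198 named transcripts of that class. From 100 to 500 RPKM the counts were 138 and 44, against 91 and 32 of 194 named ones. From 500 to 1000 RPKM they were 25 and 15, against 19 and 5 of 34, and at 1000 RPKM or more they were 15 and 17, against 7 and 9 of 29. Named transcripts of the same level thus also had slightly fewer higher than lower at 1000 RPKM or more and the reverse below. The shares of a library add up to a whole, so these changes are not independent of each other. Over the whole set, 304 transcripts (40.9%) were higher in hibernation in both bears, against 45.8% of all transcripts, 148 (19.9%) were lower in both, against 17.9%, and 292 (39.2%) changed in opposite directions, against 36.2%. The counts of direction in this paragraph are on the deposited scale. They were not repeated with other scalings of the libraries, which turned the sign of the median change given next.

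The median log2 change of the set was 0.15 in Tia, 0.11 in Star and 0.09 for the mean of both, against 0.10, 0.16 and 0.12 over all transcripts. The sign of this median depended on the scaling of the libraries. Scaling by the median ratio moved the log2 changes by -0.10 in Tia and -0.19 in Star, and scaling by the upper quartile by -0.17 and -0.19, which turned the median of the set to -0.07 and -0.11.

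No transcript of the set passed limma's test between the states after Benjamini-Hochberg adjustment over all 26614 transcripts (0 of 744, percent called over the list 0, smallest adjusted p 0.577). At an unadjusted p under 0.05, limma gave 68 of the set (9.14%), against 8.41% of all transcripts, of which 51 were higher in hibernation (6.99% of all) and 17 lower (1.42% of all). With the bear as a replicate block, limma gave 0 of the set after adjustment and 122 (16.4%) at an unadjusted p under 0.05, against 13.6% of all transcripts in the same fit. The states did not overlap, with both hibernating libraries above both active ones, for 211 of the set (28.4%), against 33.6% of all, and below both for 75 (10.1%), against 8.4% of all. These shares were near those of the whole list.

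A noise score was also computed, modelled on the method of the study, from the differences between Star and Tia in the same state. It gives the share of those differences that the change from active to hibernating of a transcript reaches, both as a ratio and in RPKM. At a score of at least 0.8 it marked 63 of the set (8.47%), against 3.7% of all transcripts and 10.3% of the named transcripts at the same threshold (47 of 455). The score depends on the level through the RPKM difference, and with noise taken only from transcripts at 50 RPKM or more it marked 18 of the set (2.42%), against 0.132% of all transcripts and 17 (3.74%) of the named ones at the same threshold. Of the 63, 45 were higher in hibernation (2.49% of all) and 18 lower (1.21% of all), and 62 moved the same way in Tia and Star. This split turned with the scaling. With median-ratio scaling 20 were higher (1.47% of all) and 40 lower (2.01% of all), and with upper-quartile scaling 18 were higher (1.28% of all) and 41 lower (2.09% of all).

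A change of at least 2-fold was called shared when seen in each bear with the same sign. It was found for 2 transcripts higher in hibernation (0.269% of the set, against 0.906% of all) and 1 lower (0.134% of the set, against 0.286% of all). Isotig34846, of 631 bases, was at 86.3 RPKM in hibernating Tia, 36.3 in active Tia, 118 in hibernating Star and 46.5 in active Star. Both hibernating values lay above both active values, with log2 changes of 1.24 and 1.33. Contig30788, of 1092 bases, was at 140.2, 60.9, 176 and 83.0 RPKM in the same order, with log2 changes of 1.20 in Tia and 1.08 in Star and no overlap of the states. Isotig18171, of 630 bases, was at 278, 641, 467 and 962 RPKM and fell in both bears by more than 2-fold, with log2 changes of -1.21 and -1.04. The limma estimates were 1.29 (SE 0.26), 1.14 (SE 0.26) and -1.12 (SE 0.37) for the 3, each with an adjusted p of 0.577, so none passed the test. Their noise scores were 0.951, 0.925 and 0.925. Lowering the limit to 1.5-fold gave 26 higher (5.93% of all) and 8 lower (1.19% of all).

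**Figure D4:**
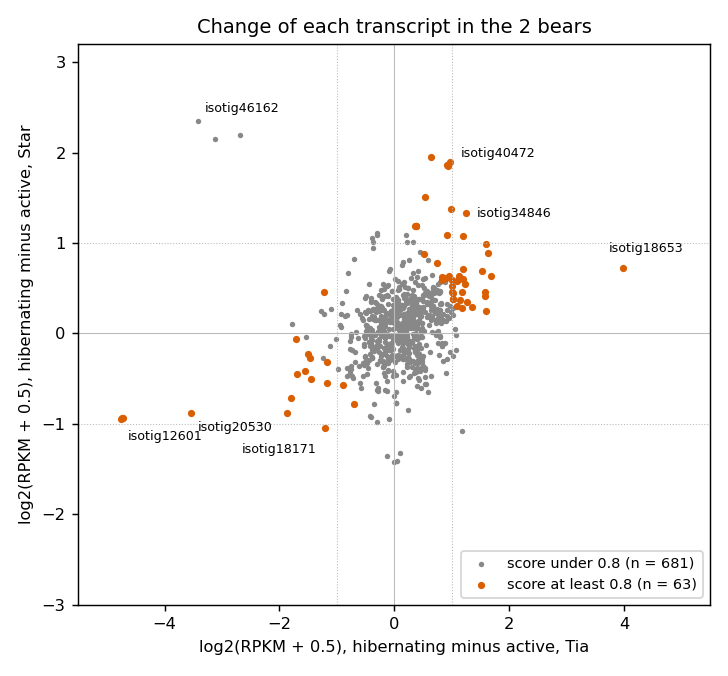
Log2 change from active to hibernating in Tia (horizontal axis) against that in Star (vertical axis) for each of the 744 transcripts, on the scale of log2(RPKM + 0.5), with dotted lines at a 2-fold change and the 63 transcripts with a noise score of at least 0.8 in another colour. The points lie mostly around 0, 3 lie beyond 2-fold with the same sign in each bear, and 3 lie far out in the corner lower in Tia and higher in Star.

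Other transcripts with high noise scores, chosen after their values were seen, owed most of their change to Tia. Isotig12601, of 485 bases and in 1 matched set with isotig12599 and isotig12600, was at 6.27 RPKM in hibernating Tia, 183 in active Tia, 50.3 in hibernating Star and 97.1 in active Star, a log2 change of -4.76 in Tia and -0.94 in Star. Isotig20530, of 449 bases, was at 12.5, 150.3, 47.6 and 87.9 RPKM, with log2 changes of -3.54 and -0.88. Isotig18653, of 536 bases, went up, from 20.0 to 325 RPKM in Tia and from 22.9 to 38.1 RPKM in Star. The states did not overlap for any of these, and hibernating Tia was the extreme library each time. Leaving out the hibernating library of Star leaves hibernating Tia alone for that state. The log2 change was then -4.31 for isotig12601, 3.89 for isotig18653 and -3.15 for isotig20530. Isotig18653 reached a mean of 50 RPKM only through hibernating Tia, and isotig20530 was under 50 RPKM in both hibernating libraries. The choice by mean level thus favours transcripts with such extremes.

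Also chosen after their values were seen, falls more alike in the bears were found for isotig00146, of 782 bases, at 258 and 945 RPKM in hibernating and active Tia and at 360.1 and 664 RPKM in hibernating and active Star, and for the abundant isotig20385, of 646 bases, at 1498.5, 2435, 2254 and 3879 RPKM. Isotig20385 held 0.163% of the reads on average. Rises of this kind were seen for isotig30469, of 849 bases, at 186, 61.3, 189.8 and 95.4 RPKM, and for isotig20539, of 414 bases, at 167, 53.6, 174 and 94.0 RPKM. In these 4 the states did not overlap, and the adjusted p of limma was not under 0.05 for any of them.

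The bears differed from each other by about as much as the states did. At least 2-fold changes in Tia, either direction, were found for 64 of the set (8.60%), against 11.5% of all transcripts, with 37 higher in hibernation (6.13% of all) and 27 lower (5.37% of all). In Star they were found for 29 (3.90%), against 4.17% of all, with 23 higher (3.27% of all) and 6 lower (0.902% of all). The size of the change between states had a median of 0.36 on the log2 scale in Tia and 0.27 in Star, and the size of the difference between bears a median of 0.32 in hibernation and 0.31 in activity. For 364 of the set (48.9%) the bears differed more than the states, against 46.3% of all transcripts. The difference in response between the bears was not tested, since each bear had 1 library per state.

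A pattern of opposite change stood out in 3 transcripts. Isotig44204, of 423 bases, was at 771 RPKM in hibernating Tia, 6738 in active Tia, 4000.2 in hibernating Star and 899 in active Star. Isotig35653, of 596 bases, was at 1055, 6780, 4218 and 924 RPKM and isotig46162, of 175 bases, at 85.1, 917, 547 and 107 RPKM in the same order. In each, active Tia and hibernating Star were high and the other 2 libraries low, with log2 changes of -3.13 and 2.15, -2.68 and 2.19, and -3.42 and 2.35 in Tia and Star. Over the whole list, 11 transcripts were at least 4-fold lower in hibernation in Tia and at least 2-fold higher in Star, these 3 among them, with 6 that carried a name and 2 unnamed ones below 50 RPKM. A named one picked from these, isotig17780, listed under AL928654.7.1, was at 766, 6994, 4111 and 898 RPKM, close to isotig44204 in every library. Whether these transcripts share reads was not tested.

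**Figure D5:**
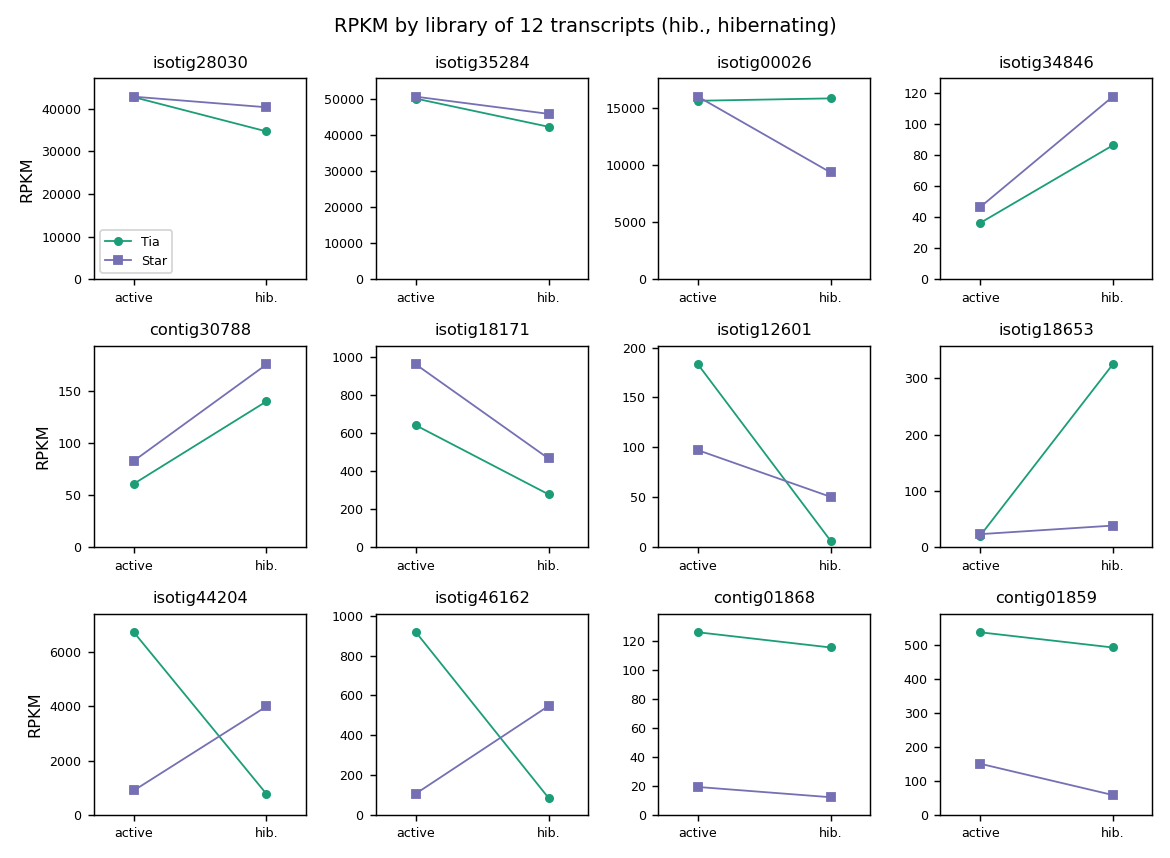
RPKM (vertical axis, from 0, with its own scale in each panel) in the active and hibernating library (horizontal axis) of 12 transcripts without a name, 1 point per library and 1 line per bear. The lines of Tia and Star run together in isotig34846, contig30788 and isotig18171, cross in isotig44204 and isotig46162, and stay apart with Tia higher in contig01868 and contig01859.

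Some transcripts separated the bears and not the states. Both libraries of Tia lay above both of Star for 146 of the set (19.6%), against 18.8% of all transcripts, and below them for 168 (22.6%), against 21.9%. A gap of at least 2-fold between the bears was found for 9 of the 744 higher in Tia and 0 higher in Star. The named transcripts at the same threshold had 4 and 1 of 455, and the whole list had 149 and 53 of 26614. Some of the 9, such as contig01873, were under 50 RPKM in Star and reached the mean only through Tia. The choice by mean level thus favours such gaps. The most abundant of the 9 was isotig15128, of 965 bases, at 3546 and 4148 RPKM in hibernating and active Tia and at 1691 and 1573 RPKM in hibernating and active Star. Of the 9, 5 were contigs with numbers in 1 stretch, from contig01854 to contig01881. The stretch was bounded by contigs of these 5 after their values were seen, so its counts are a description only. It held 13 listed transcripts, 9 of them in the set and 0 with a name. In 11 of the 13, which include the 5, both libraries of Tia were above both of Star.

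Contig01873, of 2169 bases, was at 93.9 and 101.4 RPKM in hibernating and active Tia and at 9.79 and 10.9 RPKM in hibernating and active Star, a mean 9.43-fold higher in Tia. Contig01868, of 3754 bases, was at 115 and 126 RPKM in Tia and 12.1 and 19.2 RPKM in Star, 7.70-fold higher. Contig01859 and contig01881 were 4.93-fold and 6.50-fold higher in Tia. Against these, contig01862, of 2420 bases, was at 1213 and 952 RPKM in Tia and 972 and 1115 RPKM in Star, 1.04-fold, and contig01876 differed by 1.11-fold, so the gap did not extend to every contig of the stretch. The 9 transcripts of the stretch that belong to the set held 0.748% and 0.653% of the reads in hibernating and active Tia and 0.365% and 0.513% in hibernating and active Star. In isotig40472, of 497 bases, a gap between bears and a rise in hibernation came together, at 605 and 308 RPKM in hibernating and active Tia and at 179 and 48.0 RPKM in hibernating and active Star. This transcript, isotig15128 and the contigs were chosen after their values were seen.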

How the data were processed

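RNA of the gastrocnemius of 2 bears was sequenced in both states. Of the 5 samples of the series, the single-end active and hibernating ones were used, with 1 column per bear each. The pooled and paired-end samples, which the authors used for the assembly, were not analysed here. The authors assembled 454 reads of nuclease-normalized cDNA with Newbler, together with SOAPdenovo contigs of paired-end Illumina reads. They named transcripts by BLAST against human Ensembl proteins and aligned the single-end reads with SOAP2, allowing few mismatches. The deposited values are RPKM, scaled by the authors for the length of a transcript and the depth of a library. All 26614 deposited transcripts are at 1 RPKM or more in every library, and the lowest value of a transcript described here was 4.98 RPKM. Whether the single-end libraries were also normalized by nuclease is not given in the sources used here. No sequence or genome position was used, so what the transcripts encode was not analysed here.

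The share of reads was RPKM times length as a percent of the library. Depth came from the low values, of which 91.6% to 96.9% were whole reads within a tolerance of 0.1 read (1337 to 2331 values in a library). No count test was run. Changes were tested on log2(RPKM + 0.5) by limma 3.58.1 (R 4.3.3, prior with trend, no bear term, Benjamini-Hochberg adjustment over all 26614 transcripts). The noise score compared each change with 53228 differences between bears within a state. It follows the description of NOISeq, which the authors used and which was not run here. Python 3.11.15 with pandas 2.3.3, numpy 2.4.6, scipy 1.17.1 and matplotlib 3.10.9 was used for tables and plots. The limma fit and the score were also run on simulated data. The simulated noise was independent in each library, without a lasting difference between bears, so such differences were not covered.

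The bear pairs the samples, as each animal gave a library in either state. Its difference from the other bear correlated between the states with a Pearson r of 0.358 over all transcripts and 0.352 over the 744. The p-values measure the spread between 2 bears per state.

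The transcripts, lists and tests were chosen with earlier results of these data known. Named are the 10 transcripts with the most reads, the 5 with the highest RPKM, up to 6 rises and 6 falls of at least 2-fold in both bears, the 3 largest opposite changes, the 3 longest and those next to the threshold of 50 RPKM. Others were chosen after their values were seen and are said to be so where they are given. Alternatives covered the pseudocount, scaling, prior, replicate block, thresholds, the 10 transcripts with the most reads and each library left out. Counting each matched set once, the score limited to transcripts with the same direction in both bears and the upper-quartile score were added after seeing the data.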

Additional observations from a re-analysis of the deposited data

Results flagged for a closer look

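Of the transcripts named by the fixed rule, 14 were noted because the change from active to hibernating had opposite signs in the 2 bears. The difference was not tested, since each bear had 1 library per state. The values are log2 changes of Star minus those of Tia. They were -0.54 for isotig04690 and isotig04691, a matched set with nearly equal read totals, -0.79 for isotig00022, isotig00025 and isotig00026, another such set, and -0.66 for contig00507. They were 0.76 for contig01235, 0.54 for isotig00004 and isotig00005, and 0.52 for isotig11988. The smallest was -0.08 for isotig08842. The largest were 5.77 for isotig46162, 5.28 for isotig44204 and 4.87 for isotig35653, which the rule had named for their opposite changes.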

How the results depend on the processing

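With only 2 libraries to a state, limma's test has little information on the spread. Its count of 0 stayed 0 with the replicate block, which pairs the libraries of a bear, and ran from 0 to 5 over the libraries left out. Calls arose only without the hibernating library of Star, which leaves hibernating Tia alone for that state, so no conclusion is drawn from them. They were isotig18653, isotig20530 and the matched set of isotig12599, isotig12600 and isotig12601. The count of 3 transcripts changed at least 2-fold in both bears was 34 at 1.5-fold and 0 at 3-fold (0.116% of all transcripts). It was 7 with median-ratio scaling (0.868% of all transcripts), 7 with upper-quartile scaling (0.894%) and 29 to 64 in 1 bear alone. The 63 with a noise score of at least 0.8 became 21 at 0.9 (0.943% of all) and 18 with noise from abundant transcripts only. The median log2 change of 0.09 turned to -0.07 with median-ratio scaling and -0.11 with upper-quartile scaling, and was 0.10 to 0.12 with a library left out. The difference in the share of reads, -2.44 points, became -0.12 without the 10 transcripts with the most reads, opposite in sign in the bears, and was -3.44 to -1.44 with a library left out. The mean share of 46.2% became 26.6% without those 10, 43.4% with a threshold of 100 RPKM and 49.6% with 25 RPKM. It became 37.0% with each matched set counted once and the total of reads left unchanged. The number of transcripts, 744, became 429 at 100 RPKM and 1385 at 25 RPKM, and was 725 to 760 with a library left out. Apart from the scalings, the cause of these moves was not tested where the setting does not itself change the transcripts counted.

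For 16 of the 21 named transcripts the sign of the log2 change turned when 1 library was left out, none of them called. The ranges were -0.15 to 0.12 for isotig04690 and isotig04691, -0.75 to 0.00 for isotig00022, -0.76 to 0.00 for isotig00025 and isotig00026, and -0.40 to 0.12 for contig01235. They were -0.23 to 0.06 for isotig00004 and isotig00005, -2.08 to 1.01 for isotig46162, -1.68 to 1.19 for isotig35653 and -1.94 to 0.96 for isotig44204. They were -0.53 to 0.15 for contig00507, -0.67 to 0.02 for isotig08849, -0.10 to 0.06 for isotig08842, -0.01 to 1.12 for isotig32161 and -0.17 to 0.17 for isotig11988.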
